A study of Mus musculus with 6 samples.

Results

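Reads of 10 mouse genes for sensing DNA inside cells were followed in microglia of the cerebellum after poly(I:C): the PYHIN genes Ifi203, Ifi204, Ifi207, Ifi209, Ifi211, Ifi213, Mndal and Aim2, with Cgas and Sting1. They were taken by symbol from a count table of 23491 gene symbols, all 10 had a row, and all 10 passed the filter on low counts that left 14727 genes tested. Of 6 libraries, 3 came from mice labelled Fmr1 knock out and given poly(I:C), a synthetic double-stranded RNA, by intraperitoneal injection. The other 3 came from mice with the same label given saline, which the sample titles call sham. Fmr1 is the gene silenced in fragile X syndrome, and both groups carry this label, so no wild-type level enters the comparison. Cells were enriched with beads against CD11b, a surface protein of microglia that monocytes, neutrophils and other macrophages also carry. The sources used here give no age, sex, dose or time between injection and collection. Nor do the labels say whether a library is 1 animal or a pool, so p-values measure the spread between these libraries, which may be technical.

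PYHIN proteins, named for a pyrin domain and a HIN domain, bind DNA through the HIN domain. AIM2 binds double-stranded DNA in the cytosol and recruits the adaptor ASC, encoded by Pycard, into an inflammasome that activates caspase-1. The enzyme cGAS, encoded by Cgas, makes the messenger cGAMP when it binds DNA. cGAMP then activates STING, a protein of the endoplasmic reticulum encoded by Sting1, which works through the kinase TBK1 and the factor IRF3 to switch on type I interferon genes. Interferon in turn is known to raise the transcripts of many PYHIN genes, so these sensors are both upstream of interferon and among its targets. Poly(I:C) itself is recognised by receptors for double-stranded RNA.

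Library totals lay between 33710545 and 33781938 counts for poly(I:C) and between 34608620 and 34899835 for saline, so 3 counts corresponded to at most 0.0912 CPM (read counts scaled to library size). Fmr1 had 2205, 1484 and 1897 counts with poly(I:C), against 1243, 1336 and 1375 with saline. That is 37.8 to 62.6 CPM across the 6 libraries, so reads of the gene labelled as knocked out were present in each, and these counts do not bear out the label. The sources used here do not say which stretch of Fmr1 is altered, and counts per gene do not show where reads fell. The defining microglial markers were abundant in every library, summing to 30270 to 41576 CPM with poly(I:C) and 38382 to 44161 CPM with saline for 11 of 12 genes. Other cells were represented too. The 13 neutrophil markers summed to 519 to 2424 CPM with poly(I:C) and 2540 to 21992 CPM with saline, and the 9 choroid plexus markers to 7660 to 19334 CPM with poly(I:C) and 3966 to 8451 CPM with saline. The 8 monocyte markers, of which Ms4a4c was called, summed to 275 to 655 CPM with poly(I:C) and 373 to 2280 CPM with saline. The 7 dendritic cell markers, of which the interferon-inducible Bst2 was called, summed to 223 to 270 CPM with poly(I:C) and 80.4 to 90.4 CPM with saline. The median log2 fold change was -0.29 over the 6 tested dendritic cell markers and -0.55 over the 8 monocyte markers. Their sums therefore do not stand for the typical marker of the list. No marker of these lists was at 0 in every library. Poly(I:C) replicate 1 had the highest choroid plexus sum and the lowest microglial sum of the 6 libraries. Its endothelial and pericyte sum (438 CPM) was also the highest. So was its border-associated macrophage sum (1122 CPM), with saline replicate 3 close to it (1115 CPM). Saline replicate 1 had the highest neutrophil and monocyte sums. Fewer cells of a type and less RNA per cell cannot be told apart in bulk libraries, and the part of other cells in the PYHIN results was not tested.

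After poly(I:C), Ifi209 and Aim2 rose, and the other PYHIN members had higher means but did not pass the test over all genes. Ifi209 was 8.98-fold higher and Aim2 1.44-fold higher. Cgas was 1.64-fold higher on average without passing, and Sting1 stood at a log2 difference of -0.23. In all, 2 of 10 members were called higher and 0 lower, where the same test called 0.883% of all genes tested higher and 0.0747% lower. At an unadjusted p under 0.05, 8 members were higher and 0 lower, against 10.5% of all genes tested higher and 10.8% lower. DESeq2 and limma-voom called 0 of 10 members lower, which is near the 3.84% and 10.9% of all genes tested that they called lower. The members had been chosen with earlier results of these data known, so their share of calls is a description. The test was the quasi-likelihood test of edgeR, with p-values adjusted over all genes tested by Benjamini-Hochberg and a threshold of 0.05. The median log2 fold change was 1.63 over the 10 members and 0.01 over all genes tested.

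The groups separated more often than the test called. In 7 of 10 members every poly(I:C) library lay above every saline library, against 14.0% of all genes tested. Ifi213, Mndal and Sting1 overlapped. The spread among poly(I:C) libraries was wide for most PYHIN members. Ifi204 differed 4.05-fold between its highest and lowest poly(I:C) library and 1.34-fold between saline libraries. For Ifi209 these ratios were 2.72 and 1.42, and for Aim2 1.09 and 1.08.

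**Figure D1:**
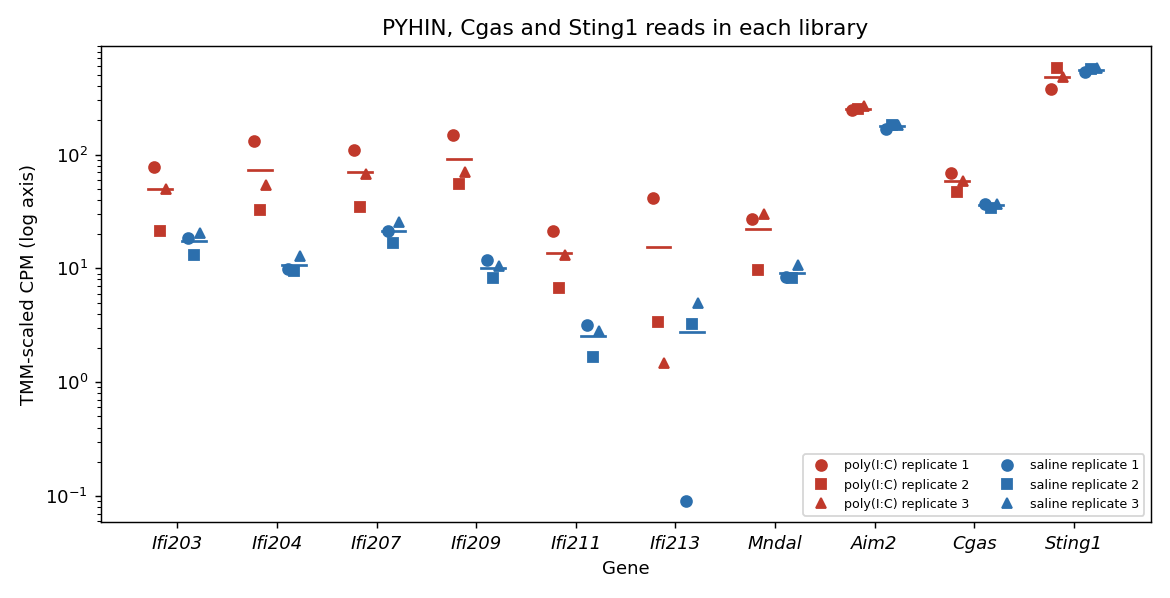
CPM (read counts scaled to library size with TMM, log axis) of the 10 members in the 3 poly(I:C) libraries (red, left) and the 3 saline libraries (blue, right). Points are libraries and lines are group means. Ifi209 lies between 54.7 and 149 CPM with poly(I:C) and between 8.31 and 11.8 CPM with saline, while Sting1 overlaps.

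In the RefSeq annotation of GRCm38.p6 the PYHIN genes form 1 cluster on chromosome 1. The order is Aim2, Ifi206, Ifi214, Ifi213, Ifi209, Ifi208, Ifi207, Ifi204, the pseudogene Ifi203-ps, Mndal, Ifi211, Ifi203, Ifi202b and Ifi205. Cgas is on chromosome 9. The count table also has rows for Ifi202b, Ifi205, Ifi206, Ifi208 and Ifi214, which are described beside the members as the rest of the family. The RefSeq promoter table, also of GRCm38.p6 and holding 250 bases before to 50 after each start, matched 8 of the 10 members. Ifi204 and Sting1 were not among the matches.

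Of 12 family genes with a promoter entry, 9 held the core of an interferon-stimulated response element there. This element is a sequence found in front of many interferon-induced genes. The core was searched on both strands as GAAA, any 2 bases and GAAA again. It was found for 5 of the 8 members with a promoter (Ifi203, Ifi207, Ifi211, Ifi213 and Mndal), in 6 of their 10 promoter entries, against 3.44% of all 32851 promoter entries. It was also found for 4 of the other 5 family genes. Ifi209 lacked the core but held AAATCGAAA, letters that overlap the core in 7 other family genes. AAATCGAAA was searched for after the sequences had been seen. It occurred in 8 family genes and in 0.125% of all promoter entries. A 60-base stretch around the match is shown for each gene, read 5′ to 3′ on the gene's own strand, because the shared letters let the family be compared by eye. Capitals mark the core, and for Ifi209 AAATCGAAA.
Ifi203: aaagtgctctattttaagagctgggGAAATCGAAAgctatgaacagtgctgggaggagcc
Mndal: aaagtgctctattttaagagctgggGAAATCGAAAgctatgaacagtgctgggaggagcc
Ifi207: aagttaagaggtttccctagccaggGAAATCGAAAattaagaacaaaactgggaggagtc
Ifi211: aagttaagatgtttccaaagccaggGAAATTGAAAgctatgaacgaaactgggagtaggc
Ifi205: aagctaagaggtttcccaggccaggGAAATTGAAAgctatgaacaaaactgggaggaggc
Ifi213: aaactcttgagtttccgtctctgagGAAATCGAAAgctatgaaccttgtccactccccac
Ifi208: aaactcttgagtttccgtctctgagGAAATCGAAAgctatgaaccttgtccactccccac
Ifi206: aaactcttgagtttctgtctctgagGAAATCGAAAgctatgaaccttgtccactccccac
Ifi214: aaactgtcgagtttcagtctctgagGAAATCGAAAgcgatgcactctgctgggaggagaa
Ifi209: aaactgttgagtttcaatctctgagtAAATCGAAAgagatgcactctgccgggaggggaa

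These stretches lie on the minus strand at chr1:173942493-173942552 for Ifi203, chr1:173880189-173880248 for Mndal, chr1:173741816-173741875 for Ifi207, chr1:173913049-173913108 for Ifi211, chr1:174031855-174031914 for Ifi205, chr1:173599311-173599370 for Ifi213, chr1:173491324-173491383 for Ifi206 and chr1:173536002-173536061 for Ifi214. They lie on the plus strand at chr1:173673582-173673641 for Ifi208 and chr1:173630755-173630814 for Ifi209. The stretches of Ifi203 and Mndal were identical at all 60 bases. Those of Ifi213 and Ifi208 were also identical at 60 of 60, and Ifi206 matched both at 59. Ifi209 was closest to Ifi214, at 54 of 60 bases, and Ifi211 to Ifi205, also at 54. Other pairs were less alike, down to 28 of 60 for Ifi207 and Ifi206. The stretches were lined up on the match, and its letters are counted in these values. For Ifi203, Mndal, Ifi207 and Ifi211 the match began between 35 and 41 bases before the annotated start, and for Ifi213 it began 73 bases before it.

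Aim2, the other member that rose, did not hold the core in its window, nor did Cgas. The gamma-activated site core, searched as TTCNNNGAA on both strands, a pattern that reads alike on either strand, was found for 0 of the 8 members and in 8.30% of all promoter entries. Within the family Ifi202b alone held it. A match is a string of letters and not a shown binding site, and the absence of one says only that these letters are not in the window. The Aim2 promoter, on the plus strand at chr1:173420354-173420653, is shown whole in lower case because Aim2 rose without either motif.
Aim2: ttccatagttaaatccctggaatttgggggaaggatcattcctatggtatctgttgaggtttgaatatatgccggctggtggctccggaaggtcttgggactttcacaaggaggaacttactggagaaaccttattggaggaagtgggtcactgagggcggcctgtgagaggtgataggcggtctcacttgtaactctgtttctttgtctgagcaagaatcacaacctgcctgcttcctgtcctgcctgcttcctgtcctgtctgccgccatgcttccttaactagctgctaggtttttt

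Ifi209, the mouse gene once named Pyhin1, had the largest fold change of the 10 members. In CPM, the poly(I:C) libraries held 149, 54.7 and 70.1, against 11.8, 8.31 and 10.4 in saline libraries, each in the order of replicates 1, 2 and 3. The lowest poly(I:C) library was thus well above the highest saline library. The means were 91.2 ± 50.4 and 10.2 ± 1.74 CPM (SD, n = 3 each), a log2 fold change of 3.17 (SE 0.40, edgeR adjusted p = 0.0184). The call was lost when poly(I:C) replicate 3 was left out (adjusted p = 0.0610), and likewise saline replicate 2 (0.0868) or 3 (0.126). The log2 fold change stayed between 2.64 and 3.43 in those fits and in the fits without each other library.

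Aim2, the inflammasome receptor for cytosolic DNA, changed least among the PYHIN members but with little spread. It stood at 245, 250 and 267 CPM in poly(I:C) libraries, against 168, 182 and 181 CPM in saline libraries. The groups did not overlap. The means were 254 ± 11.2 and 177 ± 7.71 CPM (SD, n = 3 each), a log2 fold change of 0.52 (SE 0.08, edgeR adjusted p = 0.0360). The call held without poly(I:C) replicate 1 (adjusted p = 0.0436). Without saline replicates 1, 2 or 3 the adjusted p was 0.123, 0.165 and 0.210, and without poly(I:C) replicates 2 or 3 it was 0.0637 and 0.242, at log2 fold changes between 0.48 and 0.57. RLE scaling gave an adjusted p of 0.0591, and a fit without the low-count filter 0.0518.

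Ifi204, often described as the mouse counterpart of human IFI16, was the member nearest to the threshold without passing it. It had 132, 32.5 and 54.5 CPM in poly(I:C) libraries, against 9.91, 9.53 and 12.8 CPM in saline libraries. The 3 poly(I:C) values all exceeded the saline values but differed widely from each other. The log2 difference was 2.76 (SE 0.51, edgeR adjusted p = 0.0744). Ifi204 passed without poly(I:C) replicate 1 (log2 2.04, adjusted p = 0.0302) and without poly(I:C) replicate 2 (log2 3.11, adjusted p = 0.0411).

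Ifi203, Ifi207 and Ifi211, PYHIN genes of less settled function, had the same order of libraries among poly(I:C) samples. Ifi204, Ifi209, Ifi206, Ifi208 and Cgas shared that order. Ifi207 had 110, 34.8 and 67.7 CPM in poly(I:C) libraries, against 21.4, 16.9 and 25.8 CPM in the saline libraries (log2 1.73, SE 0.40, edgeR adjusted p = 0.121). Ifi203 had 78.2, 21.5 and 49.8 CPM in poly(I:C) libraries, against 18.6, 13.1 and 20.3 CPM in saline libraries (log2 1.52, SE 0.44, edgeR adjusted p = 0.162). Poly(I:C) replicate 2 was the lowest treated library in both genes, and for Ifi203 it was close to the highest saline library. Ifi211, once named Mnda, had 21.3, 6.77 and 13.1 CPM in poly(I:C) libraries, against 3.19, 1.67 and 2.83 CPM in saline libraries (log2 2.42, SE 0.46, edgeR adjusted p = 0.0837). Without poly(I:C) replicate 2, Ifi207 passed (adjusted p = 0.0442), as did Ifi211 (0.0486), while Ifi203 did not (0.0520).

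Mndal, named for its likeness to the human myeloid nuclear differentiation antigen, overlapped between groups. It had 27.3, 9.75 and 29.9 CPM in poly(I:C) libraries, against 8.36, 8.28 and 10.8 CPM in saline libraries. Poly(I:C) replicate 2 lay within the saline range. The log2 difference was 1.29 (SE 0.40, edgeR adjusted p = 0.173), and without poly(I:C) replicate 2 it was 1.64 (adjusted p = 0.0232).

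Ifi213, which carries the older name Pydc4, depended on 1 library. It had 1472, 114 and 51 counts in poly(I:C) replicates 1, 2 and 3, against 3, 113 and 170 counts in saline replicates 1, 2 and 3. Poly(I:C) replicate 1 alone stood above the saline range, and saline replicate 1 was almost without reads. In CPM these were 41.8, 3.37 and 1.47 with poly(I:C) and 0.0912, 3.26 and 5.01 with saline. The log2 difference was 2.48 (SE 1.48, edgeR adjusted p = 0.348). Without poly(I:C) replicate 1 it turned to -0.18 (adjusted p = 0.959).

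The family genes outside the members also had higher means with poly(I:C), and 0 of 5 passed, at adjusted p between 0.0816 and 0.191 in edgeR. All 5 were higher at an unadjusted p under 0.05, as were 10.5% of all genes tested. DESeq2 and limma-voom called 4 of the 5 each, where they called 3.92% and 8.61% of all genes tested higher. Ifi202b, whose protein lacks the pyrin domain, had 92.1, 63.3 and 107 CPM in poly(I:C) libraries, against 21.1, 4.71 and 6.75 CPM in saline libraries. Saline replicate 1 was its highest control, and without that library Ifi202b passed (log2 3.92, adjusted p = 0.00189). Ifi206 had 874, 112 and 180 counts with poly(I:C), against 2, 45 and 65 counts with saline (log2 3.34, SE 1.14). Ifi208, once named Pydc3, had 742, 130 and 173 counts with poly(I:C), against 25, 14 and 48 counts with saline (log2 3.53, SE 0.81). Ifi205 and Ifi214 stayed at or under 5.09 CPM in every library, at log2 differences of 2.77 and 3.44.

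**Figure D2:**
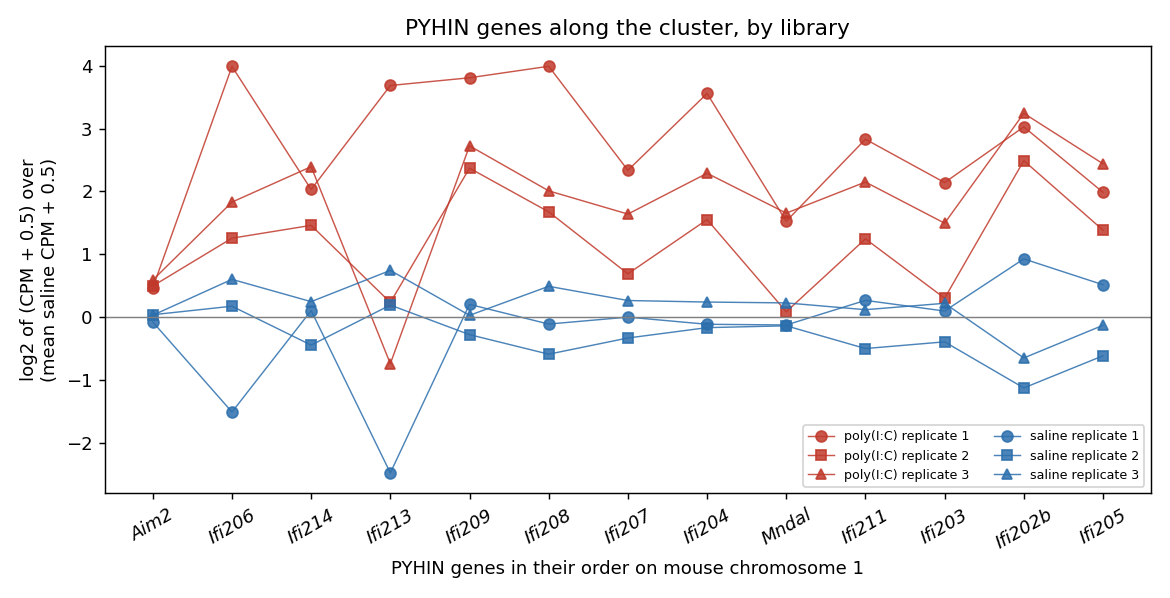
Each library's level of the 13 PYHIN genes with a row, in their chromosomal order, as log2 of (CPM + 0.5) over (mean saline CPM + 0.5); lines join the values of 1 library. Poly(I:C) replicate 1 (red circles) is highest from Ifi213 to Ifi204 and lies with the others at Aim2, and saline replicate 1 (blue circles) is low at Ifi206 and Ifi213.

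Across the 13 PYHIN rows, poly(I:C) replicate 2 was the lowest treated library in 11, and replicate 1 or 3 was the highest in 8 and 5. Ifi206, Ifi208 and Ifi213, whose promoter stretches are nearly the same, were also the 3 rows in which poly(I:C) replicate 1 stood furthest above both other poly(I:C) libraries. It was 4.80-fold above poly(I:C) replicate 3 for Ifi206, 4.24-fold for Ifi208 and 28.5-fold for Ifi213. These 3 rows together held 3088, 356 and 404 counts in poly(I:C) replicates 1, 2 and 3, against 30, 172 and 283 in saline replicates 1, 2 and 3. The same poly(I:C) library had the highest sum of choroid plexus markers (19334 CPM) and the lowest of microglial markers (30270 CPM). Saline replicate 1 had the highest sum of neutrophil markers (21992 CPM). The part of the cell make-up of the libraries in these values was not tested.

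Reads of close paralogs can be split or dropped in counting, so single rows are uncertain. In GENCODE M21 transcripts, 72.8% of the 50-base windows of Ifi211 also occurred in another gene's transcripts, from Ifi204, Ifi205, Ifi207 and Mndal. The share was 33.7% for Ifi209, which matched Ifi214, and 20.0%, 19.6%, 15.6%, 12.2% and 7.29% for Ifi204, Mndal, Ifi213, Ifi203 and Ifi207. It was 0.628% for Aim2, 0.696% for Cgas and 0 for Sting1. The sum over the 8 PYHIN members is not changed by how reads are divided among those rows. It was 805, 413 and 553 CPM in poly(I:C) libraries, against 241, 243 and 268 CPM in saline libraries, a ratio of means of 2.35. Aim2 made up most of the control sum. Without Aim2 the other 7 members summed to 336 ± 203 CPM with poly(I:C) and 74.1 ± 13.4 CPM with saline (SD, n = 3 each), a ratio of 4.54. Reads can also be divided with rows outside the 8, such as Ifi214 for Ifi209, and no sum recovers dropped reads. Over all 13 PYHIN rows the sums were 705 ± 232 CPM with poly(I:C) and 264 ± 14.9 CPM with saline, a ratio of 2.67.

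The make-up of the family therefore differed between groups. Aim2 held 38.8 ± 12.7% of all PYHIN counts with poly(I:C) and 67.0 ± 5.14% with saline (SD, n = 3 each). Ifi209 held 12.4 ± 2.86% with poly(I:C) and 3.83 ± 0.568% with saline. Ifi202b held 12.8 ± 3.02% with poly(I:C) and 4.10 ± 3.38% with saline. The shares of the groups did not overlap for these 3 genes, nor for Ifi204, Ifi211, Ifi205, Ifi208 and Ifi214. They overlapped for Ifi203, Ifi206, Ifi207, Ifi213 and Mndal. No test was run on the shares.

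To compare levels between genes, CPM were divided by length, here per kilobase of merged exons in GENCODE M21. Length does not correct for reads dropped between paralogs, which would lower rows with many shared windows. The shared part was 72.8% for Ifi211 and 33.7% for Ifi209, against 0.628% for Aim2 and 0 for Sting1. In poly(I:C) libraries Sting1 was the most abundant at 174 ± 35.7 CPM per kilobase, followed by Aim2 at 72.6 ± 3.21 and Ifi202b at 51.5 ± 13.1 (SD, n = 3 each). In saline libraries Sting1 stood at 204 ± 9.69 CPM per kilobase, Aim2 at 50.5 ± 2.20 and Cgas at 8.68 ± 0.376. Sting1 and Aim2 were separated from each other and from every other gene of the set in both groups. Ifi209 was at 25.7 ± 14.2 CPM per kilobase with poly(I:C) and 2.86 ± 0.490 with saline. From Cgas to Ifi207 in the saline libraries, neighbours in the order overlapped, as did Ifi204, Ifi209, Ifi203 and Mndal.

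Cgas, the enzyme that makes cGAMP, had 69.4, 47.2 and 58.9 CPM in poly(I:C) libraries, against 36.7, 34.0 and 36.7 CPM in saline libraries. The groups did not overlap. The means were 58.5 ± 11.1 and 35.8 ± 1.55 CPM (SD, n = 3 each), a log2 difference of 0.71 (SE 0.15, edgeR adjusted p = 0.104). Without poly(I:C) replicate 2 it passed (log2 0.84, adjusted p = 0.0431). Sting1, the receptor of cGAMP, had 378, 573 and 481 CPM in poly(I:C) libraries, against 530, 564 and 582 CPM in saline libraries. Poly(I:C) replicate 2 lay within the saline range and the others below it. The log2 difference of -0.23 (SE 0.16, edgeR adjusted p = 0.406) was -0.06 without poly(I:C) replicate 1, so no difference in Sting1 was detectable with these libraries.

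**Figure D3:**
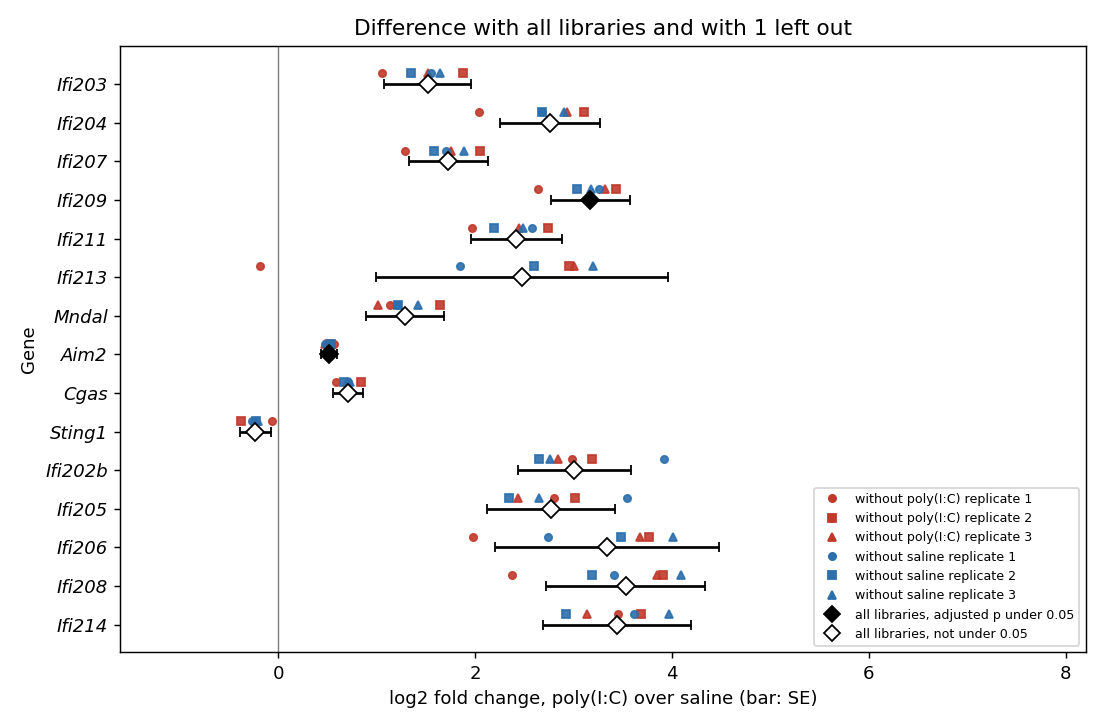
Log2 fold change of poly(I:C) over saline for the 10 members and the 5 other PYHIN genes. Diamonds show the fit with all libraries (bars: SE; filled: adjusted p under 0.05), and small symbols the fits without 1 library. Ifi213 alone crosses 0 when poly(I:C) replicate 1 is left out.

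Calls in the family depended on the method and on single libraries. DESeq2 called 8 members higher, all but Ifi213 and Sting1, where it called 3.92% of all genes tested higher. Limma-voom with quality weights called 7 higher, all of these but Mndal, where it called 8.61% of all genes tested higher. With edgeR, leaving out poly(I:C) replicate 2 let 6 members pass, where 0.717% of all genes tested were called higher. Leaving out poly(I:C) replicate 3 left 0 members called (0.338% of all genes), as did leaving out saline replicate 2 (0.437%) or 3 (0.348%). With the first replicate of each group left out together, a fit added after the data had been seen, 2.40% of all genes and 5 members passed: Ifi209 (log2 2.76, adjusted p = 0.000208), Ifi204, Ifi211, Aim2 and Cgas. That fit lacks the libraries highest in neutrophil and in choroid plexus markers. The part of those cells in its calls was not tested.

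Below the sensors, genes of the pathway were taken from 6 lists. Tbk1, Irf3, Ulk1, Enpp1, Tlr9, Casp4 and Pycard are named for their roles and were chosen after their values were seen. In the relay from STING to interferon genes, edgeR called 4 of 17 tested genes higher and 0 lower, with a median log2 fold change of 0.09. Without adjustment, 6 were higher and 4 lower at a p under 0.05. DESeq2 called 6 higher and 1 lower, and limma-voom 7 higher and 5 lower. For each of the 6 lists, such counts stand beside the shares over all genes tested. Higher and lower, these were 0.883% and 0.0747% in edgeR, and 10.5% and 10.8% without adjustment. DESeq2 gave 3.92% and 3.84%, and limma-voom 8.61% and 10.9%. The relay genes called by edgeR included Irf7, a factor that amplifies interferon production, and Stat2 and Irf9, factors that carry the interferon signal to the nucleus. Irf7 stood at 331 ± 64.0 CPM with poly(I:C) and 21.2 ± 6.51 CPM with saline, and Stat2 at 222 ± 32.3 CPM with poly(I:C) and 67.0 ± 0.475 CPM with saline (SD, n = 3 each). Tbk1, the kinase that STING recruits, had 145 ± 11.1 CPM with poly(I:C) and 111 ± 4.40 CPM with saline (log2 0.37, edgeR adjusted p = 0.119). Irf3, the factor TBK1 activates, had 90.8 ± 10.7 CPM with poly(I:C) and 108 ± 6.39 CPM with saline (adjusted p = 0.226).

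Among regulators of STING, edgeR called 3 of 26 tested genes higher and 0 lower (median log2 -0.13). At an unadjusted p under 0.05, 3 were higher and 7 lower, DESeq2 called 3 higher and 4 lower, and limma-voom 4 higher and 7 lower. By these 3 criteria, 10.5%, 3.92% and 8.61% of all genes tested were higher, and 10.8%, 3.84% and 10.9% lower. The 3 genes that edgeR called were Usp18, a protease that removes ISG15 and restrains interferon signalling, Nlrc5, best known as the activator of MHC class I genes, and Ifi35. Usp18 was 11.3-fold higher, Nlrc5 4.73-fold and Ifi35 2.35-fold. Without poly(I:C) replicate 3 the adjusted p was 0.0537 for Usp18 and 0.0977 for Nlrc5, and without saline replicate 3 it was 0.0524 and 0.130. Nlrc5 also missed without poly(I:C) replicate 1 (0.0630) or 2 (0.0589). Atg9a, which acts in STING trafficking, had 47.0 ± 3.00 CPM with poly(I:C) and 77.9 ± 12.8 CPM with saline (edgeR adjusted p = 0.0683). It was called lower by DESeq2 (adjusted p = 0.000172) and limma-voom (0.00647). Ulk1, an autophagy kinase that phosphorylates STING, had 50.2 ± 6.07 CPM with poly(I:C) and 76.6 ± 3.88 CPM with saline (adjusted p = 0.0703).

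Transport and breakdown of cGAMP had no called gene among 11 tested in edgeR, with log2 differences between -0.43 and 0.17. At an unadjusted p under 0.05, 0 were higher and 1 lower, DESeq2 called none, and limma-voom called 2 lower. Lrrc8a, a subunit of volume-regulated channels that carry cGAMP, stood at a log2 difference of -0.35 (edgeR adjusted p = 0.222), and Abcc1, an exporter of cGAMP, at -0.43 (0.378). Limma-voom called both lower (0.0293 and 0.0423). The importer Slc19a1 stood at 0.12 and P2rx7, an ATP-gated channel, at -0.16 (edgeR adjusted p = 0.463 for both). Enpp1, which degrades cGAMP outside cells, had 15.0 ± 2.37 CPM with poly(I:C) and 13.9 ± 2.13 CPM with saline (adjusted p = 0.740). Of nucleases and other restraints, edgeR called 2 of 16 tested genes higher and 0 lower. At an unadjusted p under 0.05, 3 were higher and 3 lower, DESeq2 called 3 higher and 2 lower, and limma-voom 3 higher and 3 lower. The genes called by edgeR were Adar, which edits double-stranded RNA (2.49-fold), and Oas1a, which makes the activator of RNase L (7.21-fold). Both roles named here concern RNA, and the list's 14 other tested genes were not called by edgeR. Pld3, a lysosomal exonuclease for single-stranded nucleic acids, had 146 ± 15.9 CPM with poly(I:C) and 200 ± 9.09 CPM with saline (log2 -0.45, edgeR adjusted p = 0.118), and was called lower by DESeq2 (adjusted p = 0.00824) and limma-voom (0.00751). Samhd1, a phosphohydrolase that depletes dNTPs, had 267 ± 37.8 CPM with poly(I:C) and 165 ± 36.5 CPM with saline (edgeR adjusted p = 0.140), and passed without saline replicate 1 (0.0326), with DESeq2 (0.00867) and with limma-voom (0.00683).

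Among other DNA sensors, edgeR called 1 of 19 tested genes higher and 0 lower. At an unadjusted p under 0.05, 5 were higher and 2 lower, DESeq2 called 2 higher and 1 lower, and limma-voom 7 higher and 2 lower. The gene called by edgeR was Zbp1, a sensor of left-handed nucleic acids, with 66.1 ± 21.3 CPM with poly(I:C) and 5.84 ± 2.83 CPM with saline (log2 3.50, SE 0.41, adjusted p = 0.0133). It missed without saline replicate 3 (0.101) and without poly(I:C) replicate 3 (0.0622). Sidt2, a lysosomal membrane protein that takes up nucleic acids, stood at a log2 difference of -0.53 (edgeR adjusted p = 0.148), and DESeq2 (0.0219) and limma-voom (0.0123) called it lower. The helicase Ddx41 stood at -0.32 (edgeR 0.166) and was called lower by limma-voom (0.0280) but not by DESeq2 (0.0691). The helicase Dhx36 stood at 0.37 (edgeR 0.155) and was called higher by DESeq2 (0.0472) and limma-voom (0.0155). Tlr9, the endosomal receptor for unmethylated DNA, had 162 ± 27.1 CPM with poly(I:C) and 167 ± 14.3 CPM with saline (adjusted p = 0.863).

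The inflammasome list covers the one that AIM2 builds and its outputs, and also holds sensors of other inflammasomes. In this list edgeR called 1 of 16 genes higher and 0 lower. Before adjustment, 5 were higher and 1 lower at a p under 0.05, DESeq2 called 3 higher and 1 lower, and limma-voom 5 higher and 1 lower. The gene called by edgeR was Il18, a cytokine that caspase-1 matures. It had 53.8, 56.6 and 56.0 CPM in poly(I:C) libraries, against 33.2, 36.0 and 34.9 CPM in saline libraries (log2 0.68, SE 0.08, edgeR adjusted p = 0.0146). The groups did not overlap. Its adjusted p was 0.0540, 0.0794 and 0.122 without saline replicates 1, 2 and 3 and 0.130 without poly(I:C) replicate 3. Casp1, which encodes caspase-1, had 52.2 ± 8.10 CPM with poly(I:C) and 35.1 ± 3.28 CPM with saline (adjusted p = 0.129). Neither Casp4, a sensor of bacterial lipopolysaccharide (adjusted p = 0.172), nor Il1a (0.154) passed in edgeR. DESeq2 called Casp1 (adjusted p = 0.0108) and Il1a (0.0153) higher, as did limma-voom (0.00894 and 0.0170). The adaptor Pycard had 41.9 ± 6.74 CPM with poly(I:C) and 50.9 ± 21.6 CPM with saline (edgeR adjusted p = 0.586). Ninj1, needed for membrane rupture in dying cells, had 45.5 ± 4.81 CPM with poly(I:C) and 65.6 ± 8.29 CPM with saline (edgeR adjusted p = 0.130). It was called lower by DESeq2 (adjusted p = 0.0109) and limma-voom (0.00635).

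**Figure D4:**
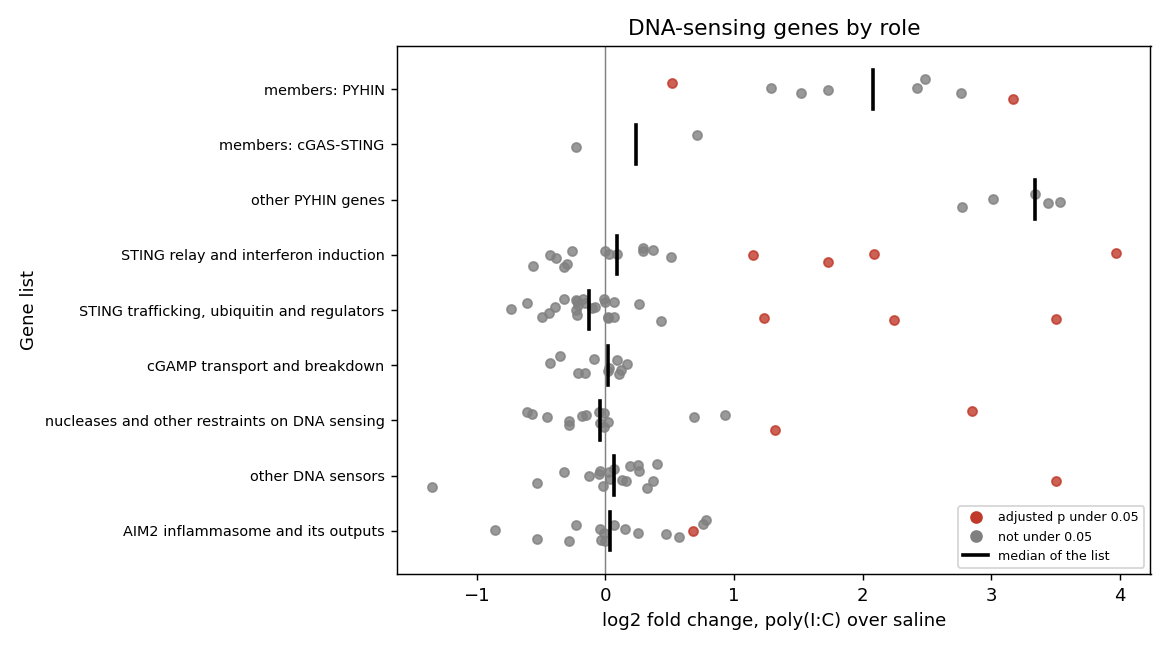
Log2 fold change of poly(I:C) over saline for each tested gene of the DNA-sensing lists (points; red: adjusted p under 0.05), with the list's median (black bar). In the 6 lists below the PYHIN and cGAS-STING rows the medians lie between -0.13 and 0.09. The 11 genes called by edgeR are all higher, where it called 0.883% of all genes tested higher and 0.0747% lower. DESeq2 and limma-voom also called genes of these lists lower, where they called 3.84% and 10.9% of all genes tested lower.

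Next to the cluster, Cadm3 and Ackr1 precede Aim2 in RefSeq. Cadm3 was too low to test. Ackr1, a chemokine receptor of vessels and red cells, had 10.2, 1.98 and 2.04 CPM in poly(I:C) libraries, against 0.943, 1.65 and 0.265 CPM in saline libraries (edgeR adjusted p = 0.212), again highest in poly(I:C) replicate 1.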

How the data were processed

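Libraries were made from CD11b-enriched cells of the cerebellum with SMARTer amplification and Nextera XT, per the labels' protocols, and the submitters' processing notes name fastp, HISAT2, HTSeq and the GRCm39 build, with no versions. The deposited values are raw read counts per gene symbol, not normalised by the authors. For read length, strand setting and multi-mapping reads, nothing is stated in the sources used here. The members and gene lists were chosen with earlier results of these data known.

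Groups followed the labels (3 libraries each). Genes were filtered with filterByExpr, scaled by TMM and tested with edgeR 4.0.16 (quasi-likelihood, no covariate, R 4.3.3) over 14727 genes, with Benjamini-Hochberg adjustment and a threshold of 0.05. Each standard error is the absolute log2 fold change over the root of its F statistic. DESeq2 1.42.0 and limma 3.58.1 (voom with quality weights), other scalings and filters, each library left out and a replicate block were alternatives. The scripts were tested on simulated counts. Library totals were 33710545 to 34899835 counts, and intervals and floors would cover counting error only. Text names every member, the other PYHIN rows, and from each list the called genes and up to 4 genes of smallest p (up to 2 for flanking genes). Some genes of that rule are not reported here, and genes named outside it are said to be so. Promoters came from RefSeq (GRCm38.p6), and exon lengths and 50-base windows, compared on both strands, from GENCODE M21 (GRCm38), a build other than the authors'. Protein sequences were not used here, so a planned comparison of protein identity was not run. Trex1 was not analysed here.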

Additional observations from a re-analysis of the deposited data

How the results depend on the processing

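The numbers of genes called depended on the tool. Over all genes tested, DESeq2 called 577 higher and 566 lower, limma-voom 1268 higher and 1608 lower, and edgeR 130 higher and 11 lower. With the first replicate of each group left out together, an alternative chosen after seeing the data, edgeR called 355 higher and 214 lower. Leaving out 1 library gave 51 to 167 higher and 0 to 20 lower, and no filter gave 18 lower. Members called higher numbered 1 with RLE scaling, 8 with DESeq2, 7 with limma-voom, 5 without both libraries and 0 to 6 with 1 library left out, against 2. In the pathway lists, DESeq2 called 17 higher and 9 lower, limma-voom 26 higher and 20 lower, and leaving out 1 library gave 7 to 11 higher, against 11 higher and 0 lower. No filter gave 1 lower there, and the fit without both libraries 15 higher and 3 lower. Ifi213 turned to -0.33 with limma-voom, -0.18 without poly(I:C) replicate 1 (up to 3.20 with another library left out) and -0.75 without both libraries, and the cause was not tested. The median log2 fold change of the members stayed between 1.10 and 1.97 with 1 library left out, and the log2 ratio of the summed PYHIN counts between 0.95 and 1.44. The shorter motif GAAANNGAA was found for the same 5 members.

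Whether libraries with the same replicate number were paired is not settled here. The correlations of their deviations were 0.148, -0.0907 and 0.246, and those between unlike numbers ran from -0.428 to 0.374. With 3 libraries a group, such values can neither show nor exclude a pairing. A fit with the replicate number as a block called 171 genes higher and 89 lower, 3 members higher, Ifi211 among them (adjusted p = 0.0185), and 1 pathway gene lower. With 3 libraries a group, differences of low or variable genes such as Ifi213 were not detectable.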
